A study of Mus musculus with 19 samples.

Results

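D1 and D2 spiny projection neurons of the mouse striatum were compared at 42 days of age through their ribosome-bound mRNA. The comparison takes 8 libraries of the 19 samples in the series, 4 of D1 and 4 of D2 neurons, chosen by the cell type and age in their labels. Translating ribosome affinity purification (TRAP) pulls down ribosomes that carry a tagged L10a protein, together with the mRNA on them, from the cells that express the tag. The D1 libraries came from mice labelled Drd1::EGFP-L10a and the D2 libraries from mice labelled Drd2::EGFP-L10a, both on the C56BL/6J background as the labels spell it. All 8 libraries came from the striatum of females at 42 days, with no treatment or further allele in the labels, which do not say whether animals were pooled. The tag thus marks cells that use the Drd1 or the Drd2 control regions, whatever else those cells are, and each kind of neuron comes from 1 transgenic line only. Neuron kind, line and the second part of the library index, which the labels give as 1 sequence for D1 and another for D2, cannot be told apart here. Another 8 libraries, 4 of each kind from the same lines at 2 years of age, serve as a comparison on other mice.

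Spiny projection neurons are the GABA-releasing output neurons of the striatum and make up most of its cells. Those with the Drd1 receptor project mainly to the substantia nigra and the internal pallidum (the direct pathway), release substance P and dynorphin beside GABA, and respond to dopamine through stimulatory G proteins and cyclic AMP. Those with the Drd2 receptor project mainly to the external pallidum (the indirect pathway), release enkephalin, respond to dopamine through inhibitory G proteins, and carry the adenosine A2a receptor. Both kinds share a large programme of signalling proteins such as DARPP-32 (Ppp1r1b), the phosphodiesterase Pde10a and the G protein subunit Golf (Gnal).

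Levels are in TPM, a length-scaled share of a library's transcripts, and are given for libraries 1 to 4 of a kind in the order of the records, which has no meaning beyond naming a library. Differences are fitted log2 values, D1 minus D2, with the standard error (SE), and a call means that edgeR's two-sided quasi-likelihood test gave an adjusted p (Benjamini-Hochberg, over 12896 genes) under 0.05. The 8 libraries held 39555507 to 56890627 fragments assigned to genes, and a count in 12770 to 14992 genes. D1 library 4 stood apart: it had the fewest genes with a count, its mean correlation of log levels with the other D1 libraries was 0.884 against 0.915 to 0.939 for the other 7 with their own kind, and it lay at 208.7 on a first principal component on which the others lay between -41.8 and -16.9. D1 libraries 1, 2 and 3 correlated slightly more with the D2 libraries (0.931, 0.920 and 0.919) than with the other D1 libraries (0.923, 0.917 and 0.915). The latter means include D1 library 4. D1 library 4 and the D2 libraries correlated more with their own kind. The variation between libraries was wide for bulk libraries, with a biological coefficient of variation of 75.0%. Fragments were 170.0 to 173 bases long on average in D1 and 175 to 194 in D2. In bulk pull-downs, fewer cells of a type and less RNA per cell cannot be told apart.

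Of 12896 genes tested, 98 were called, which is 0.76%. There were 46 genes higher in D1 (0.357% of those tested) and 52 higher in D2 (0.403%), with a median size of 2.52 and 1.63 on the log2 scale against 0.41 over all genes. In each of the 98 the TPM of the 4 D1 libraries and of the 4 D2 libraries did not overlap, as in 862 of all genes tested (6.68%), 320 of them higher in D1 (2.48%) and 542 in D2 (4.2%). An unadjusted p under 0.05 was reached by 1235 genes (9.58%). The shares over all genes, 0.76% called and 9.58% unadjusted, are the background for the counts in gene groups below. A log2 size over 2 was reached by 25 of the genes higher in D1 and by 20 of those higher in D2. Of 10 genes listed as known D1 markers 9 were higher in D1, and of 9 tested D2 markers 7 were higher in D2, as the labels give the kinds. Both counts include the genes the kinds are defined by, and the lists hold Sfxn1 and Ttc12, which lie near Drd1 and Drd2. The lists were chosen with earlier results of these data known, so the counts are no independent check of the kinds. Without D1 library 4 the counts were 8 and 7, and over the alternatives 7 to 10 and 6 to 7. Without D1 library 4 the test called 107 genes, 49 higher in D1 and 58 in D2. Leaving out D1 library 2 gave 54, and leaving out D2 library 1, 2, 3 or 4 gave 59, 64, 52 and 62.

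**Figure D1:**
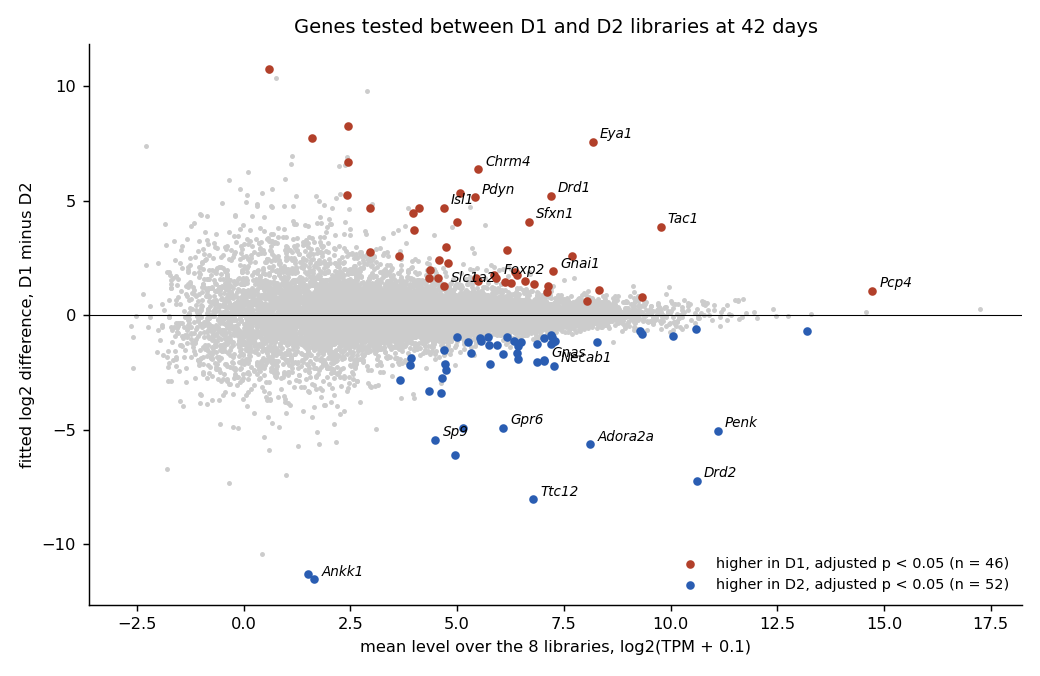
Each point is 1 of the 12896 genes tested, with its mean level over the 8 libraries as log2(TPM + 0.1) on the x axis and the fitted log2 difference, D1 minus D2, on the y axis. The 46 genes higher in D1 (red) and the 52 higher in D2 (blue) include receptor and peptide genes far from the grey cloud, and genes such as Pcp4 with a high level and a small difference.

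The dopamine receptors Drd1 and Drd2 define the kinds. The tag in each line is driven through the control regions of 1 of them, so they are no independent check. Drd1, the stimulatory D1 receptor (chr13:54051183-54055705 on mm10, minus strand), stood at 320.2, 250.3, 255 and 311 TPM in the D1 libraries and at 8.7, 8.14, 5.11 and 11.3 TPM in the D2 libraries. Every D1 library was far above the highest D2 library, and the means differed 34.2-fold. The difference was 5.23 ± 0.26 (SE) with adjusted p = 3.53e-07. Drd2, the inhibitory D2 receptor (chr9:49340627-49408177, plus strand), stood at 15.4, 37.5, 25.1 and 1.55 TPM in D1 and at 2997, 2602, 3195 and 3668 TPM in D2, so that the opposite receptor was most uneven among the D1 libraries, with library 4 the lowest. Its difference was -7.22 ± 0.71, with adjusted p = 0.000294. The other 3 dopamine receptor genes, Drd3, Drd4 and Drd5, were too low to be tested, with means of at most 2.36 TPM in either kind. Of the 2 tested receptor genes, 1 was thus called in each direction.

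The stretches before the start sites of these 2 genes are shown because the tag in each line is driven through the control regions of one of them. They are from RefSeq's table of GRCm38.p6, lie before the start site and outside the annotated gene, and run 5′ to 3′ on the gene's strand, at chr13:54055706-54055908 for Drd1 and chr9:49340153-49340402 for Drd2. The Drd2 stretch ends at the base before the start site, while the bases nearest the Drd1 start site fall inside the annotated gene and are not printed. Capitals mark matches to the GC box GGGCGG on either strand.
Drd1: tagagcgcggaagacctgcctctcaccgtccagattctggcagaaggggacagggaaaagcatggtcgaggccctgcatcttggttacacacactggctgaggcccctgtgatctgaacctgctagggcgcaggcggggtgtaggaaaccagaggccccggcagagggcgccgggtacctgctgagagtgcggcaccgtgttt
Drd2: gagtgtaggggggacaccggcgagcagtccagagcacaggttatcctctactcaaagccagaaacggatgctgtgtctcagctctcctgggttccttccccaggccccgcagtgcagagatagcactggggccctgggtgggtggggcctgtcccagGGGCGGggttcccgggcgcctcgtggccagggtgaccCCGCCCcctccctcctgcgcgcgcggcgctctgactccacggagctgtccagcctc
Over the full 250 bases before the start site, Drd2 had 2 such matches and Drd1 had 0, and 32.7% of the 32851 promoters in that table held at least 1. The cyclic AMP response element TGACGTCA and its core TGACG, which the longer motif contains, searched on both strands, matched in neither. They were present in 1.55% and 17.8% of all promoters. The RefSeq start site of Drd1 is that of the file's single Drd1 isoform, while that of Drd2 lies 224 bases before the start of the file's single Drd2 isoform.

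The peptide precursors Tac1, Pdyn and Penk were called, the first 2 higher in D1 and Penk higher in D2. Tac1, the precursor of substance P, read 1343, 1600, 2076 and 1447 TPM in D1 and 122, 135, 119.9 and 111 TPM in D2. The D2 libraries were tightly grouped, at 122 ± 9.97 TPM, and the means differed 13.2-fold. Its difference was 3.86 ± 0.18, with adjusted p = 3.53e-07. Penk, the precursor of the enkephalins, read 84.6, 168, 103 and 122 TPM in D1 and 3844, 4545, 4064 and 4625 TPM in D2. At a mean of 4269 ± 377 TPM (SD, n = 4) it was the peptide gene with the highest level in either kind, and it was still present in D1 at 119 ± 35.9 TPM. The difference was -5.05 ± 0.24, adjusted p = 3.53e-07. Pdyn, the precursor of dynorphin, was lower than Tac1 in every D1 library, at 69, 82.2, 92.7 and 85 TPM against 4.83, 2.15, 2.1 and 1.01 TPM in D2, and differed by 5.15 ± 0.47 with adjusted p = 0.000147.

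Of 10 tested peptide and secretory granule genes, 3 were higher in D1 and 1 was higher in D2, against 0.357% and 0.403% of all genes. Their median difference was 1.68, and 0.02 over all genes. The third one higher in D1 was Scg2, secretogranin II, a protein of dense-core granules, with 77.2, 122, 87.3 and 219 TPM in D1 and 28.6, 46, 42.5 and 49.9 in D2. Library 4 was the highest of the D1 libraries, and the call (difference 1.78 ± 0.37, adjusted p = 0.0481) was lost in 11 of 18 alternatives. Among members that did not pass, Nts, the neurotensin precursor, had 2.27 ± 2.65 TPM in D1 and 29.4 ± 12.1 in D2 with adjusted p = 0.379. Cck, cholecystokinin, had 109 ± 69.7 and 38.2 ± 24.5 TPM with adjusted p = 0.424. Sst, somatostatin, had 74.2 ± 31.5 and 26 ± 16.7 TPM with adjusted p = 0.524. The neurotensin and somatostatin values of the 2 kinds did not overlap, in opposite directions. Neither gene was called, and 6.68% of all genes tested had values without overlap.

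**Figure D2:**
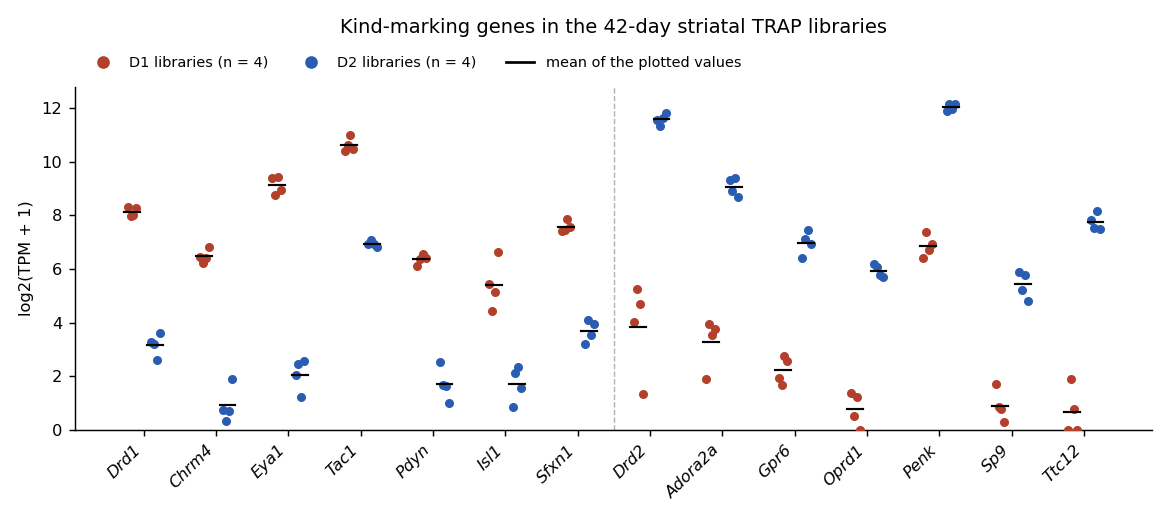
Levels as log2(TPM + 1) of 14 genes called between the kinds, with 1 point per library, D1 in red and D2 in blue, and a bar at the mean of the 4 plotted values. The 7 genes left of the dashed line were higher in D1 and the 7 to its right higher in D2, and in none of them do the points of the 2 kinds overlap.

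Among muscarinic, adenosine and opioid receptors, Chrm4 was higher in D1 and Adora2a and Oprd1 were higher in D2. Chrm4, the muscarinic M4 receptor, which couples to inhibitory G proteins, had 85.5, 74.2, 83.3 and 111 TPM in D1 and 0.68, 0.25, 0.64 and 2.74 TPM in D2. It was the only 1 of 5 muscarinic receptor genes called, with a difference of 6.38 ± 0.64 and adjusted p = 0.000297. Chrm1 had 123 ± 47.6 TPM in D1 and 94.1 ± 10.4 in D2 (adjusted p = 0.43). Chrm3 had 0, 2, 0 and 0 TPM in D1 and 11.1, 35.4, 11.1 and 8.42 in D2 and did not pass (adjusted p = 0.34), although the values did not overlap.

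Adora2a, the stimulatory A2a receptor, had 2.67, 14.5, 10.5 and 12.4 TPM in D1 and 632, 481, 666 and 409 TPM in D2. The D1 level, 10.01 ± 5.16 TPM, was a small fraction of the D2 level, 547 ± 122 TPM, and the difference of -5.63 ± 0.49 had adjusted p = 8.98e-05. In the fit of all 16 libraries the size was the same and adjusted p was 0.0614. Adora1, the inhibitory A1 receptor, had 79.7 ± 13.2 TPM in D1 and 91.7 ± 13.3 TPM in D2 (adjusted p = 0.931). Of 7 tested genes of adenosine reception and handling, Adora2a was the only one called. Nt5e, the ecto-nucleotidase that makes adenosine from AMP, had 2.57 ± 3.92 TPM in D1 and 28.3 ± 5.33 in D2 without overlap (adjusted p = 0.18). Adk, adenosine kinase, had 4.79 ± 2.69 and 18.5 ± 6.03 TPM (adjusted p = 0.29).

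Oprd1, the delta receptor that binds enkephalin, had 1.61, 0.43, 1.33 and 0 TPM in D1 and 71.2, 66.2, 53.6 and 50.5 TPM in D2. It differed by -6.12 ± 0.89, with adjusted p = 0.00569, so that the kind with the most Penk also had the most of this receptor's mRNA. Of 5 tested opioid and cannabinoid receptor genes it was the only one called. The mu receptor Oprm1 had 9.68 ± 7.14 TPM in D1 and 10.8 ± 6.21 in D2 (adjusted p = 0.982). The kappa receptor for dynorphin, Oprk1, had 15 ± 7.87 and 6.82 ± 2.58 TPM (adjusted p = 0.422), and the cannabinoid receptor Cnr1 had 133 ± 36.8 and 205 ± 23.2 TPM (adjusted p = 0.327).

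Of 17 tested orphan receptor genes 1 was higher in D1 and 2 were higher in D2, against 0.357% and 0.403% of all genes. Gpr6, which raises cyclic AMP without a known ligand, had 2.8, 2.2, 5.76 and 4.96 TPM in D1 and 84.1, 139, 176 and 120.3 TPM in D2, a difference of -4.91 ± 0.42 with adjusted p = 8.98e-05. Gpr26 was higher in D1, with 38.6, 39.3, 33.1 and 27.1 TPM against 9.96, 16.7, 8.21 and 13.4, a difference of 1.62 ± 0.23 and adjusted p = 0.00439, and it did not pass in limma on log2(TPM + 1) or log2(TPM + 0.1), where adjusted p was 0.102 in both.

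Of 15 tested ionotropic glutamate receptor genes only Grik3, a kainate receptor subunit, was called, at 0.32, 5.19, 0.76 and 1.96 TPM in D1 and 58.9, 73, 68.7 and 71.1 TPM in D2. It differed by -4.91 ± 0.70 with adjusted p = 0.0049, and without a count filter adjusted p was 0.0736. Grik2, another kainate subunit, had 63.5 ± 5.52 TPM in D1 and 40.1 ± 14.7 TPM in D2 without overlap (adjusted p = 0.175). The AMPA receptor subunits Gria1 and Gria2 had 71.7 ± 10.4 and 189 ± 27.2 TPM in D1 and 78.9 ± 6.67 and 201 ± 12.1 TPM in D2. None of 6 metabotropic glutamate, 12 GABA-A or 9 serotonin receptor genes was called by edgeR, DESeq2 or any other test run, and 0, 3 and 2 of them had an unadjusted p under 0.05 in edgeR. Htr1b, which was the serotonin receptor with the smallest p, had 37.3 ± 12.3 TPM in D1 and 59.2 ± 21.2 in D2 (adjusted p = 0.292).

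**Figure D3:**
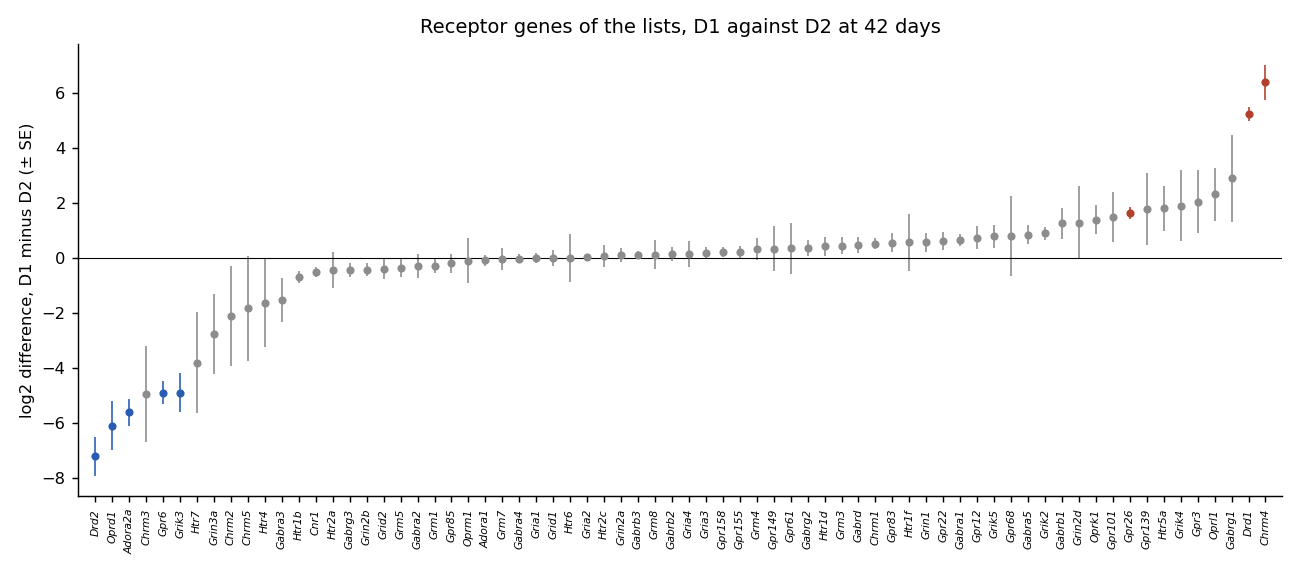
Fitted log2 differences, D1 minus D2, with their SE, for 70 tested receptor genes in order of size. Red points (Chrm4, Drd1, Gpr26) were higher in D1 and blue points (Drd2, Oprd1, Adora2a, Gpr6, Grik3) higher in D2 at an adjusted p under 0.05, while grey points did not pass, and low genes have long bars.

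Behind the receptors, 2 of 23 tested G protein subunit genes were called, 1 in each direction, against 0.76% of all genes. Gnai1, an inhibitory alpha subunit, had 259, 245, 268 and 179 TPM in D1 and 54.4, 74.8, 59.8 and 82.3 TPM in D2. Its difference was 1.92 ± 0.17 with adjusted p = 9.55e-05. Gnas, the stimulatory alpha subunit found in most cells, had 42.1, 66.3, 57.2 and 30.1 TPM in D1 and 238, 197, 263 and 149 TPM in D2, with a difference of -1.97 ± 0.26 and adjusted p = 0.00276. In these 2 genes the kind with the stimulatory dopamine receptor had more inhibitory subunit mRNA, and the other kind more stimulatory subunit mRNA. Over all 23 tested, 10 differences were positive and 13 negative, with a median of -0.01 against 0.02 over all genes. Gnal, the stimulatory subunit that striatal neurons use most, was higher than Gnas in every library, at 765 ± 168 TPM in D1 and 1148 ± 139 in D2, and did not pass (adjusted p = 0.185).

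Of 31 tested genes of cyclic AMP and cyclic GMP signalling, 2 were higher in D2 and 0 in D1. Over all genes these shares were 0.403% and 0.357%. A negative difference was found in 20 of the 31, with a median of -0.16 against 0.02 over all genes. Gucy1a1, a subunit of the guanylyl cyclase that nitric oxide activates, had 84.8, 79.8, 88 and 100.5 TPM in D1 and 262, 201, 161 and 234 TPM in D2. It differed by -1.15 ± 0.19 with adjusted p = 0.0112, and without D1 library 2 adjusted p was 0.0571. Its partner subunit Gucy1b1 had 91.4 ± 24.1 and 154 ± 37.4 TPM (adjusted p = 0.305). Arpp19, a phosphoprotein that inhibits protein phosphatase 2A, had 1234, 1201, 1204 and 1390 TPM in D1 and 2041, 1797, 1795 and 1745 in D2, the smallest difference among the called genes at -0.61 ± 0.12. Its adjusted p of 0.0325 passed the threshold in 6 of 18 alternatives. Pde10a, at 832 ± 113 TPM in D1 and 1312 ± 249 in D2, did not overlap and had adjusted p = 0.075. Ppp1r1b had 3766 ± 407 TPM in D1 and 4491 ± 512 TPM in D2 (adjusted p = 0.888). None of the 17 tested RGS genes, which speed the turning off of G proteins, was called by edgeR, DESeq2 or any other test run, and 2 had an unadjusted p under 0.05 in edgeR.

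Transcription regulators held 4 genes higher in D1 and 4 higher in D2 among 46 tested, against 0.357% and 0.403% of all genes. Eya1, a co-activator of homeodomain proteins of the sine oculis family, had 679, 431, 687 and 494 TPM in D1 and 3.1, 4.42, 1.32 and 4.88 TPM in D2. With a difference of 7.56 ± 0.38 and adjusted p = 3.6e-07, it exceeded Drd1 in level in every D1 library, and it had the largest difference of any named gene with counts in all 8 libraries. Isl1, a LIM homeodomain factor of direct pathway neurons, had 42.4, 20.4, 34.4 and 98.2 TPM in D1 and 0.82, 3.37, 4.07 and 1.92 TPM in D2, a difference of 4.71 ± 0.48 with adjusted p = 0.000315. The D1 values were widely spread, with library 4 the highest and library 2 the lowest. Ebf1, a factor of direct pathway neuron differentiation, had 25.2, 30.3, 24.4 and 39.4 TPM in D1 and 0.35, 2.26, 1.06 and 1.61 in D2, a difference of 4.49 ± 0.74 with adjusted p = 0.012. Without D2 library 3 or 4 its adjusted p was 0.067 and 0.0514. Foxp2, a forkhead factor, had 148, 82, 94.1 and 45.9 TPM in D1 and 35.1, 14.4, 29.9 and 32.6 in D2 (difference 1.63 ± 0.29, adjusted p = 0.0191), and did not pass in 8 of 18 alternatives.

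Sp9, a zinc finger factor of indirect pathway neurons, had 2.23, 0.78, 0.69 and 0.23 TPM in D1 and 58.5, 35.8, 53.9 and 27.3 TPM in D2. All D1 values were under 3 TPM, and the difference of -5.44 ± 0.60 had adjusted p = 0.000784. Etv5, an ETS factor, had 39.5, 46.5, 32.3 and 38.1 TPM in D1 and 161, 137, 116 and 103 TPM in D2, a difference of -1.62 ± 0.22 with adjusted p = 0.0038, which was 0.455 in the fit of all 16 libraries. Foxp1 was the forkhead factor with the opposite direction to Foxp2, at 521, 330.2, 542 and 538 TPM in D1 and 801, 768, 682 and 981 TPM in D2. The difference of -0.81 ± 0.15 (adjusted p = 0.0254) did not pass in 8 of 18 alternatives. Meis1, a TALE homeobox factor, had 16.9, 5.42, 4.91 and 3.94 TPM in D1 and 43.8, 52.6, 34.2 and 49.97 TPM in D2. Its difference was -2.40 ± 0.42 with adjusted p = 0.0189, and it did not pass in 7 of 18 alternatives. Its relative Meis2 was far higher in both kinds, at 403 ± 32.9 and 733 ± 114 TPM (adjusted p = 0.245). Six3, a homeobox factor, had 63.9 ± 23.5 TPM in D1 and 165 ± 61.8 in D2 without overlap (adjusted p = 0.179). None of 14 tested immediate early genes was called by edgeR, DESeq2 or any other test run, and 2 had an unadjusted p under 0.05 in edgeR, with Fos at 5.04 ± 3.82 and 5.02 ± 3.97 TPM.

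Of 74 tested cell adhesion genes, 2 were higher in D1 and 1 was higher in D2, against 0.357% and 0.403% of all genes. A positive difference was found in 48 of the 74, with a median of 0.28 against 0.02 over all genes. Nrxn2, a presynaptic adhesion protein of the neurexin family, had 17.2, 17, 24.5 and 19.2 TPM in D1 and 94.1, 133, 130.3 and 107 TPM in D2. The difference of its counts was -1.68 ± 0.32 with adjusted p = 0.0291, smaller than the 5.95-fold gap between the mean TPM, which also divide by the length of the isoforms assigned in each library, and it did not pass in 7 of 18 alternatives. Nrxn3 had 271 ± 68.6 and 228 ± 55 TPM (adjusted p = 0.334). Cntnap3, a contactin-associated protein, had 10.1, 4.35, 16.9 and 10.9 TPM in D1 and 0, 0, 0.14 and 0.3 in D2 (difference 6.69 ± 1.23, adjusted p = 0.0235) and did not pass in 6 of 18 alternatives.

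Of 61 tested potassium channel genes 1 was called, against 0.76% of all genes, and 7 had an unadjusted p under 0.05, against 9.58%. The called gene was Kcnk2, a leak channel also known as TREK-1, at 44.4, 55.7, 60.02 and 53.3 TPM in D1 and 112, 137, 133 and 129.7 TPM in D2. Its difference was -1.15 ± 0.18 with adjusted p = 0.00805. None of 32 tested sodium and calcium channel genes was called by edgeR, and 1 was called by DESeq2. An unadjusted p under 0.05 was reached by 8 of the 32 in edgeR, against 9.58% of all genes. Asic4, of the acid-sensing channel family, was higher in D1, with 45.1, 35.8, 44.2 and 62.6 TPM against 5.5, 10.5, 6.98 and 3.46, a difference of 2.96 ± 0.42 and adjusted p = 0.00478, which was 0.0942 in the fit of all 16 libraries.

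Further genes higher in D1 have varied roles. Pcp4, a small protein that binds calmodulin, was the most abundant called gene, at 31557, 33032, 44937 and 31873 TPM in D1 and 17236, 19127, 16103 and 22227 TPM in D2, a difference of 1.07 ± 0.13 with adjusted p = 0.00176. Stmn2, a stathmin that destabilises microtubules, had 122, 142, 133 and 111 TPM in D1 and 44.7, 44.4, 26.8 and 33.1 TPM in D2. The kinds were well separated, and the difference was 1.89 ± 0.24 with adjusted p = 0.00184. Ube2ql1, a ubiquitin-conjugating enzyme-like protein, had 42.7, 36.5, 23.2 and 28.2 TPM in D1 and 1.2, 0.38, 1.99 and 1.92 TPM in D2 (difference 4.68 ± 0.55, adjusted p = 0.00124). Strip2, a protein of phosphatase-kinase complexes, had 109 ± 23.7 TPM in D1 and 43.6 ± 7.91 TPM in D2 (difference 1.43 ± 0.18, adjusted p = 0.00221).

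Further genes higher in D2 have varied roles. Fig4, a phosphatase of endosomal phosphoinositides, had 5.57, 3.27, 6.15 and 1.36 TPM in D1 and 42.8, 62.4, 33.3 and 41.6 TPM in D2, a difference of -3.39 ± 0.44 with adjusted p = 0.00232. Necab1, a calcium-binding protein, had 99.2, 76.7, 58.5 and 48.1 TPM in D1 and 282, 134, 270.1 and 255 TPM in D2. D2 library 2 was low among its kind at 134 TPM, yet above the highest D1 library, and the difference was -2.20 ± 0.22 with adjusted p = 0.000297. Fst, follistatin, which binds activins, had 8.61, 3.32, 7.06 and 5.5 TPM in D1 and 31.5, 47.7, 46.2 and 48.5 TPM in D2 (difference -2.72 ± 0.38, adjusted p = 0.00442, and 0.432 in the fit of all 16 libraries). Trim9, a ubiquitin ligase of neurons, had 83 ± 14.8 TPM in D1 and 210.3 ± 29 in D2, and Me2, the mitochondrial malic enzyme, 34 ± 7.67 and 136 ± 29.3 TPM. Fam163b had 49.4 ± 9.98 and 213 ± 65.3 TPM and Etl4 37.4 ± 6.67 and 197 ± 33.1 TPM. These last 4 had differences of -1.23, -1.89, -1.98 and -2.04, with adjusted p = 0.00253, 0.00165, 0.000837 and 0.00111.

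Of 8 tested genes near Drd1 or Drd2 on their chromosomes, 1 was higher in D1 and 2 were higher in D2. Over all genes these shares were 0.357% and 0.403%. Sfxn1, a mitochondrial serine transporter gene near Drd1 on chromosome 13, had a difference of 4.07 ± 0.25 (adjusted p = 2.95e-06). Ttc12, near Drd2 on chromosome 9, was at 0 counts in D1 libraries 1 and 4, at 0, 2.69, 0.71 and 0 TPM in D1 and 225, 182, 286 and 182 TPM in D2. Its adjusted p was 0.0068, and 0.181 without a count filter. Ankk1, also near Drd2, had 0 counts in all D1 libraries and 7.54, 4.7, 5.17 and 7.04 TPM in D2, which makes it at least 473-fold higher in D2 when D1 is set to a floor of 3 counts over the group (adjusted p = 0.0068). Among those that did not pass, Ncam1, further along from Drd2, had 21.7 ± 8.35 and 21.5 ± 5.89 TPM and Cplx2, near Drd1, 1149 ± 173 and 985 ± 194 TPM. Whether transcripts came from the natural locus or from the tagged construct of a line cannot be told apart in gene counts.

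A further group of called genes, chosen after their values were seen, adds receptors, enzymes and transporters. Slc35d3, a nucleotide sugar transporter family member, had 52.4, 71.8, 74.2 and 60.1 TPM in D1 and 0.66, 0, 0.81 and 5.64 TPM in D2 (difference 5.34 ± 1.08, adjusted p = 0.0424). Impg1, a gene known from the retina, had 9.5, 18.9, 7.12 and 7.41 TPM in D1 and at most 0.09 TPM in D2 (adjusted p = 0.0067). Hrh3, the inhibitory histamine H3 receptor, had 93.8 ± 21.6 TPM in D1 and 218 ± 45.4 TPM in D2 (difference -1.11 ± 0.20, adjusted p = 0.0239). Mme, neprilysin, a protease that cleaves enkephalins, was higher in D2 with 46 ± 13.2 TPM in D1 and 125 ± 26.8 TPM in D2 (difference -1.35 ± 0.22, adjusted p = 0.0126). Chrna4, a nicotinic receptor subunit, had 6.37 ± 2.8 and 23.5 ± 9.37 TPM (difference -2.17 ± 0.41, adjusted p = 0.0263). Syt7, a calcium sensor of exocytosis, and Shank1, a postsynaptic scaffold, were higher in D1, with 64.5 ± 21.2 and 44.2 ± 17.1 TPM against 25.1 ± 4.63 and 10.4 ± 5.78 TPM. Among neuronal calcium sensors, Hpcal4 was higher in D1, with 309.8 ± 49.5 TPM against 216 ± 10.03, and Hpca, hippocalcin, was higher in D2, with 12007 ± 773 TPM against 6801 ± 1444 in D1.

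The shared genes of spiny projection neurons were at high level in both kinds. Of 16 tested, 1 was higher in D1 (Foxp2) and 2 were higher in D2 (Foxp1 among them), and 14 had a negative difference, with a median of -0.24. Their summed level was 12084 to 14637 TPM in D1 and 16269 to 18305 TPM in D2, so that the libraries of the 2 kinds did not overlap. Adcy5, the adenylyl cyclase of these neurons, was the only one besides Foxp2 with a positive difference, at 231 ± 28.7 TPM in D1 and 196 ± 12.3 in D2 (adjusted p = 0.366). Bcl11b, a zinc finger factor known as Ctip2, had 125 ± 26.3 and 146 ± 16 TPM, and Rgs9 144 ± 39.1 and 163 ± 39.9 TPM. Of the compartment genes, 0 of 8 tested striosome and 0 of 7 tested matrix genes were called by edgeR, with 4 and 3 at an unadjusted p under 0.05. Among striosome genes, Spon1 and Tshz1 were without overlap, at 10.01 ± 3.08 and 23.9 ± 7.29 TPM in D1 and 2.08 ± 1.43 and 11.1 ± 2.7 TPM in D2, with adjusted p = 0.075 and 0.109. DESeq2 called 3 striosome genes, all higher in D1, and 0 matrix genes.

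Markers of other cells were low beside these levels, and were examined as whole lists. Of 6 tested astrocyte genes, 1 was called: Slc1a2, the main glial glutamate transporter, had 14.5, 56.8, 15.3 and 80.1 TPM in D1 and 12.2, 8.92, 7.15 and 10.8 TPM in D2. Libraries 2 and 4 of D1 were high and libraries 1 and 3 close to D2, and the call (difference 1.30 ± 0.26, adjusted p = 0.0354) was lost in 8 of 18 alternatives, without D1 library 4 at 0.0623. The 10 astrocyte genes summed to 60.6 to 133 TPM in D1 and 26.2 to 67.3 in D2. Of the 6 tested, 5 had a positive difference, with a median of 1.11 against 0.02 over all genes. An unadjusted p under 0.05 was reached by 3 of the 6 in edgeR, and DESeq2 called 2 higher in D1 and 0 higher in D2. Aqp4 and Gja1 had means of at most 1.28 TPM in either kind, while S100b had 10.1 ± 5.42 TPM in D1 and 0.925 ± 0.511 in D2 (adjusted p = 0.163). Of 5 tested genes of cholinergic interneurons, which also use Drd2, Isl1 was called as above, and the other 4 had negative differences. An unadjusted p under 0.05 was reached by 4 of the 5, and DESeq2 called 1 higher in D1 and 2 higher in D2. Slc5a7, the choline transporter, had 0.86 ± 0.622 TPM in D1 and 5.66 ± 3.12 in D2 without overlap (adjusted p = 0.261), and Chat 0.708 ± 1.32 and 1.38 ± 0.878 TPM (adjusted p = 0.93).

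Genes of GABAergic interneurons summed to 64.6 to 142.8 TPM in D1 and 9.51 to 70.05 in D2, mostly through Sst. Of these, 0 of 6 tested were called by edgeR or DESeq2, and 0 had an unadjusted p under 0.05. Those of glutamatergic neurons summed to 457.8 to 951.9 TPM in D1 and 727 to 1359 in D2 through Nrgn, which spiny projection neurons also express. Of these, 0 of 5 tested were called by edgeR or DESeq2, and 2 had an unadjusted p under 0.05 in edgeR. A positive difference was found in 4 of the 5, with a median of 3.03 against 0.02 over all genes. Slc17a7, the vesicular glutamate transporter of the cortex, had 2.75 ± 2.45 TPM in D1 and 0.28 ± 0.346 in D2 (adjusted p = 0.51). The sums of oligodendrocyte genes were 139.9 to 321 TPM in D1 and 163 to 297.6 in D2, and 0 of 10 were called by edgeR or DESeq2 or had an unadjusted p under 0.05. Microglial genes summed to at most 22.6 TPM, and those of vessel cells to at most 12.4 TPM, in any library, with C1qa at 0 in all 8. The part of other cells in the differences described here was not tested.

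Ribosomal protein genes summed to 33704 to 42981 TPM in D1 and 27898 to 37956 in D2, and respiratory chain genes to 52336 to 60441 and 44917 to 55729 TPM, both with overlap between the kinds. None of 76 ribosomal protein genes was called by edgeR, with 8 at an unadjusted p under 0.05, against 9.58% of all genes. A positive difference was found in 65 of the 76, with a median of 0.22 against 0.02 over all genes. None of 77 tested respiratory chain genes was called by edgeR, with 18 at an unadjusted p under 0.05, 58 positive and a median of 0.24. DESeq2 called 1 of each list, higher in D1. Without D1 library 4 edgeR called 0 of each. Among 56 tested axon guidance genes edgeR called 0, with 7 at an unadjusted p under 0.05, and DESeq2 called 2. Sema6d, a transmembrane semaphorin, had 34.9 ± 27.8 TPM in D1 and 8.88 ± 1.38 in D2 (adjusted p = 0.075). Of 26 tested splicing regulators edgeR called 0, with 7 at an unadjusted p under 0.05, and DESeq2 called 1. Rbfox1, a neuronal splicing factor, had 395 ± 22.4 TPM in D1 and 573 ± 33.6 in D2, and Celf1 93.6 ± 14.2 and 159 ± 17.6 TPM, both without overlap and with adjusted p = 0.213 and 0.0848.

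The 2-year libraries, from other mice of the same 2 lines, gave a second measurement of the same contrast. There, 354 of 12410 genes were called (2.85%), 220 higher in D1 (1.77%) and 134 higher in D2 (1.08%). The old D1 libraries stood apart, with counts in 10364 to 13694 genes against 13838 to 14766 in old D2, and the biological coefficient of variation was 98.4%. Of the 98 genes called at 42 days, 97 were tested at 2 years, 84 had the same direction, 31 were called in that direction and 0 in the other. Those 31 were 31.6% of the genes called at 42 days and 8.76% of those called at 2 years. Over the 12080 genes tested at both ages 52.1% had the same direction. Eya1 differed by 7.23 at 2 years (adjusted p = 1.3e-05), Pdyn by 5.61 (adjusted p = 0.000156), Drd2 by -7.14 (adjusted p = 0.00322) and Oprd1 by -7.79 (adjusted p = 0.0308). Gnai1 had a difference of 2.07 with adjusted p = 0.000685. Adora2a and Gpr6 had -5.43 and -4.59 with adjusted p = 0.0878 and 0.0518, and Gnas -0.99 with adjusted p = 0.125.

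**Figure D4:**
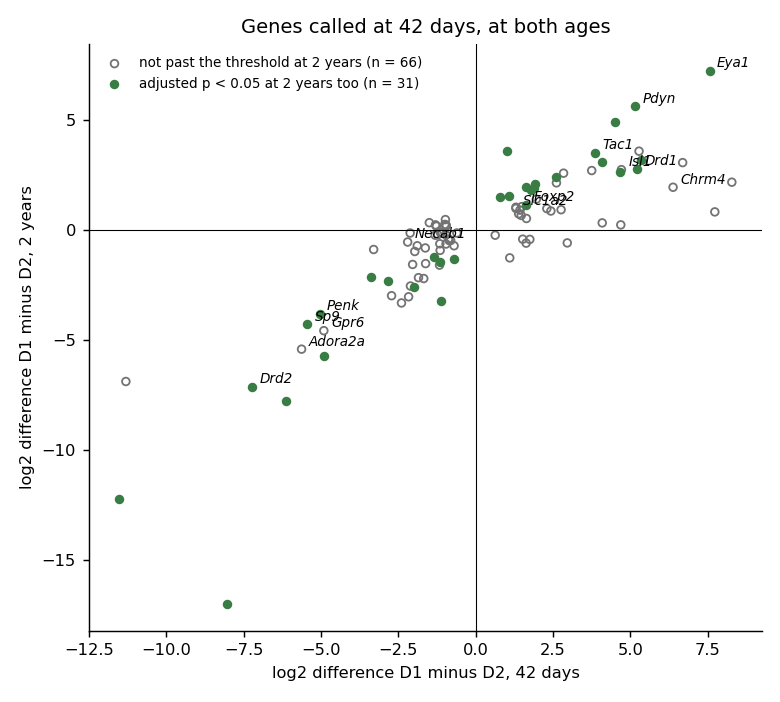
The 97 genes called at 42 days and tested at both ages, with the log2 difference D1 minus D2 at 42 days on the x axis and at 2 years on the y axis. Green points (31) were also called at 2 years and open points (66) were not, and 84 of the 97 lie on the same side of 0 on both axes.

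A test of the difference between the ages, over all 16 libraries, called 246 of 13926 genes (1.77%), of which 12 were among the 98. The 98 had been called on the same 42-day libraries that enter this test, which favours contrasts that are larger at 42 days. Drd1 was one of the 12: at 2 years it had 418 ± 130 TPM in D1 and 67.6 ± 16.7 TPM in D2, against 284 ± 36.6 and 8.31 ± 2.54 TPM at 42 days. The contrast was larger at 42 days by 2.45 on the log2 scale (adjusted p = 0.00561), and D2 libraries had more Drd1 mRNA at 2 years. Chrm4 had 51 ± 31.8 and 13.9 ± 7.94 TPM at 2 years, and its contrast was larger at 42 days by 4.43 (adjusted p = 0.00953). Necab1 read 296 ± 269.6 and 353 ± 94 TPM at 2 years, where the D1 libraries were widely spread, a change of -1.67 (adjusted p = 0.0451). Library index also differs between the ages within each kind, so that age and index cannot be told apart.

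Isoform use was tested as the share of a gene's counts that RSEM gave to each isoform. Among 23011 isoforms of 6502 genes, 0 were called by edgeR (0%), 604 had an unadjusted p under 0.05 (2.62%), and the smallest p was 8.39e-05. That share is below the 0.05 which such a threshold passes when nothing differs. The edgeR test was thus cautious at 42 days, and 0 calls do not show equal isoform use. limma on log2 odds called 1, and edgeR's diffSpliceDGE called 10. At 2 years edgeR called 0 of 20650 isoforms, with 2761 at an unadjusted p under 0.05 (13.4%). Of 28 genes listed for their known isoforms, 25 had tested isoforms, and 10 of these 160 isoforms had an unadjusted p under 0.05. For Drd2, whose long and short receptor forms are well known, the files list 1 isoform, so those forms could not be separated.

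Gria2 makes AMPA receptor subunits with either of 2 exons, known as flop and flip, which set how fast the channel closes. The 2 coding exons are shown because they are the whole coding difference between Gria2-201 (flop) and Gria2-202 (flip) in GENCODE M21. They lie at chr3:80691320-80691434 and chr3:80690404-80690518 of GRCm38 on the minus strand, have 115 bases each and differ at 36 positions, which are in capitals.
Gria2-201: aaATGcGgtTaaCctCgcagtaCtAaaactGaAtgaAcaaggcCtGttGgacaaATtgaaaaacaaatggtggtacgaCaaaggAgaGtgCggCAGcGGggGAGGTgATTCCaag
Gria2-202: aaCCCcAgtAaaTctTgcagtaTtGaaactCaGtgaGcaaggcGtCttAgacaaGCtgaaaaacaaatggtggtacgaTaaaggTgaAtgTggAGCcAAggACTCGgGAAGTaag
The flop form made up 83%, 79.3%, 82.8% and 56.7% of Gria2 in D1 and 65.7%, 77.2%, 76.7% and 78.3% in D2. The means, 75.5% ± 12.6 (SD, n = 4) in D1 and 74.5% ± 5.88 in D2, lay within the spread between libraries (unadjusted p = 0.782). In D1 library 4 the flip form had 43.3%, the highest share among the 8 libraries.

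Cacna1c encodes the pore of an L-type calcium channel, and its isoforms Cacna1c-202 and Cacna1c-203 carry one or the other of 2 coding exons of 84 bases. They are shown because the shares of these 2 forms did not overlap between the kinds. How many of all tested isoforms also did not overlap was not counted, so the pattern alone does not set these forms apart. They lie at chr6:118638427-118638510 and chr6:118637730-118637813 on the minus strand, with the 35 differing positions in capitals.
Cacna1c-202: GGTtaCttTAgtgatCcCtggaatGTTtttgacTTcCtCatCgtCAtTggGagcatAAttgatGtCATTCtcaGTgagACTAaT
Cacna1c-203: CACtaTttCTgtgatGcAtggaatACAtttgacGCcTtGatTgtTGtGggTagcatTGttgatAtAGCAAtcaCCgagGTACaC
Cacna1c-202 had 60.5%, 24.3%, 46.8% and 52.9% of the gene's total in D1 and 0%, 14.2%, 0% and 0% in D2, without overlap. The unadjusted p was 0.00643 and the adjusted p 1, so the difference was not called. These shares rest on 1309, 423, 714 and 1113 fragments in D1 and 0, 457, 0 and 0 in D2. At 2 years the means were 0% in D1 and 37.1% in D2, the opposite order.

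Skil-202, an isoform of the SMAD-binding repressor gene Skil, was the isoform with the smallest p, and the only one that limma called. It joins across 2 coding stretches that Skil-201 keeps. The longer is shown, at chr3:31097466-31097705 on the plus strand, with its first and last 2 bases in capitals, the letters of a splice donor and acceptor.
Skil-201: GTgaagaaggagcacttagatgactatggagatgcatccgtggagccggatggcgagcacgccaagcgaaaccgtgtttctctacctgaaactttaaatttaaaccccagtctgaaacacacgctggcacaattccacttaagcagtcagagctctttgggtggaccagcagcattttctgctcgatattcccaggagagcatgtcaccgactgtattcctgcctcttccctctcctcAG
Skil-202 had 3.03%, 23%, 20.8% and 21.4% of Skil in D1 and 0% in all 4 D2 libraries. It was given 441, 2154, 3602 and 2105 fragments in D1 and 0 in each D2 library. The adjusted p was 1 by edgeR, 0.00501 by limma and 1.45e-08 by diffSpliceDGE. At 2 years its means were 2.00% ± 2.32 in D1 and 0.945% ± 1.41 in D2 (SD, n = 4).

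The other isoforms that diffSpliceDGE called were at 0% in every library of one kind, with the exception of Wdr59-201, and uneven in the other. Pde10a-211 had 0%, 8.11%, 12.2% and 5.25% of Pde10a in D1. The main isoform Pde10a-202 had 75.9% ± 9 in D1 and 89.5% ± 3.58 in D2 (unadjusted p = 0.0209). Vps13d-201 had 40.3%, 88.8%, 34.7% and 9.76% in D1 and 0% in D2. Wdr59-201 had 32.3%, 61%, 18.7% and 43.8% in D2 and at most 0.19% in D1. For Gnas, whose total was higher in D2, Gnas-206 had 51.6% ± 15.8 and 48.4% ± 24.5 (unadjusted p = 0.982). Ppp1r1b-202, a model annotated as a retained intron, held 81.1% ± 7.12 of the Ppp1r1b total in D1 and 81.7% ± 7.88 in D2.

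**Figure D5:**
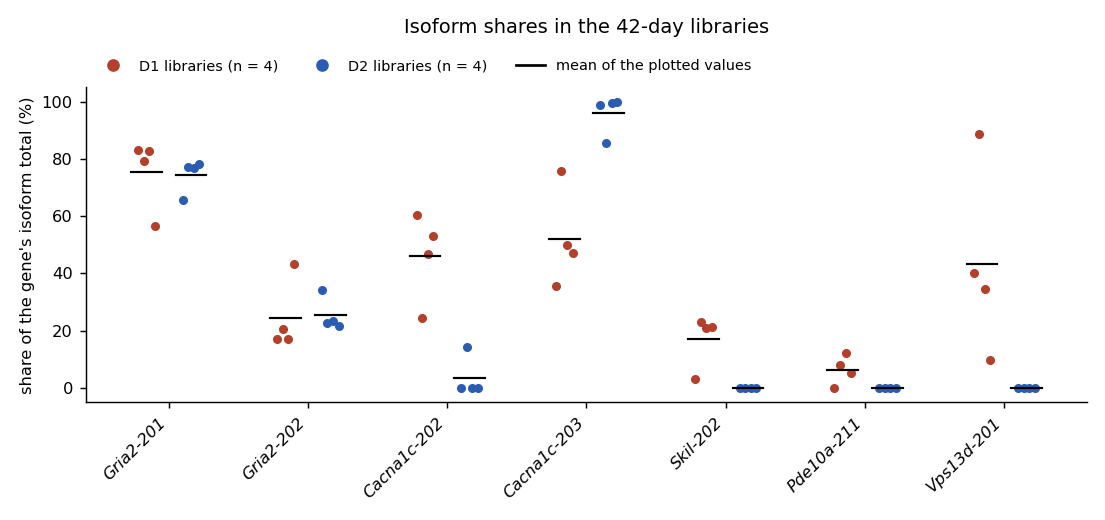
Share of a gene's total in percent for 7 isoforms, with 1 point per library, D1 in red and D2 in blue, and a bar at the mean of 4. The Gria2 forms overlap between kinds, the Cacna1c forms do not, and Skil-202, Pde10a-211 and Vps13d-201 are at 0% in every D2 library.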

How the data were processed

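The 8 TRAP libraries (4 D1, 4 D2) were made, per the labels' protocols, with NuGEN Ovation V2. Per the submitters' processing notes, the authors worked on mm10 with the aligner STAR (2.5.1b) and the quantifier RSEM (1.2.20). Each deposited table holds RSEM expected counts, TPM and, for isoforms, a percent of the gene's total, per the file headers. Not given in the sources used here: annotation release, strand setting and read length. RSEM divides shared fragments by a model, so near-identical genes, overlapping genes and isoforms are uncertain. Names and positions are from GENCODE M21 (37607 of 39017 genes, 91225 of 94647 isoforms matched by ID), sequences from RefSeq and the GRCm38 genome.

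Expected counts were rounded, filtered with filterByExpr, scaled by TMM and fitted with the robust quasi-likelihood test of edgeR 4.0.16 (limma 3.58.1, R 4.3.3) on the 8 libraries, without covariates. Isoforms with a mean of at least 10 counts were tested with edgeR against the rest of their gene, with a term for each library, in genes with at least 20 counts in 3 libraries of each kind. Described were, by rule, the 15 genes with the smallest p in each direction with a regular symbol and a mean of at least 5 TPM in the higher kind, up to 3 called members of each list and direction, and 7 known markers. Some of the items picked are not reported here. The code was tested on simulated data, in which gene counts varied less between libraries than they do here. That test does not show how often calls err in these libraries. Alternatives were RLE scaling, DESeq2 1.42.0, voom, limma on log2(TPM + 1) and log2(TPM + 0.1), other count filters, all 16 libraries, a fit that is not robust, GC and length correction, and leaving out each library. The members and gene lists were chosen with earlier results of these data known. The series' design text calls the libraries biological replicates.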

Additional observations from a re-analysis of the deposited data

Results flagged for a closer look

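For the 43 genes described by rule, the highest or lowest of 4 libraries stood apart from the other 3 in 7 of 85 groups (8.24%) by a gap test that chance passes in about 1 in 20. Pcp4 had 44937 TPM in D1 library 3 against 31557 to 33032 in the others, and Foxp1 had 330 TPM in D1 library 2 against 521 to 542. Meis1 had 16.9 TPM in D1 library 1 against 3.94 to 5.42. Me2 had 45.5 TPM in D1 library 1 against 28.9 to 31.3, and 93.1 TPM in D2 library 2 against 144 to 155. Fam163b had 310 TPM in D2 library 4 against 173 to 196, and Fst 31.5 TPM in D2 library 1 against 46.2 to 48.5.

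The test of the difference between 42 days and 2 years passed in 3 of these 43 genes, and in 246 of 13926 genes overall tested (1.77%). In it the contrast of D1 against D2 differed by 2.45 for Drd1 (adjusted p = 0.00561), 4.43 for Chrm4 (adjusted p = 0.00953) and -1.67 for Necab1 (adjusted p = 0.0451), on the log2 scale. The genes had been called on the same 42-day libraries that enter this test, which favours contrasts that are larger at 42 days. The biological coefficient of variation over all genes was 75.0% at 42 days and 98.4% at 2 years.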

How the results depend on the processing

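None of the 46 genes that the rule picks changed direction in any of 18 alternatives, and 28 were called in each of them, while 18 lost the call in at least 1. These genes were picked on the same libraries, and their TPM did not overlap between the kinds. A change of direction was therefore unlikely from the start, and its absence is no independent support. The count of 98 called genes (46 higher in D1, 52 in D2) became 307 (161 and 146) with DESeq2 and 57 (28 and 29) with all 16 libraries in the fit. The number higher in D1 became 70 with voom, 28 with limma on log2(TPM + 1) and 29 on log2(TPM + 0.1). Leaving out 1 library gave 52 to 107 calls, 24 to 49 higher in D1 and 28 to 58 in D2, with the fewest without D2 library 3. On log2(TPM + 0.1) the median difference over all genes was -0.12, against 0.02 in the edgeR fit. Isoform calls were 0 by edgeR, 1 by limma and 10 by diffSpliceDGE, and 0 without any 1 library. No paired analysis was possible because the labels give no number that ties a D1 library to a D2 library. The causes were not tested. Depth limits genes of a few TPM.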

Other observations

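Ryr2, a calcium release channel gene outside the lists, was chosen after its values were seen. The files list 2 isoforms of it, each of 16813 bases. Their shares as RSEM gave them were 50% each in all 4 D1 libraries, while Ryr2-201 had 100%, 100%, 99.99% and 94.8% in D2. RSEM divides shared fragments by a model, so an even split need not be a measured share. Whether any fragment told the 2 isoforms apart was not tested. The fragments given to Ryr2-201 were 1016, 1722, 918 and 906 in D1 and 4431, 3991, 3083 and 2467 in D2. The adjusted p was 1 by edgeR, and at 2 years the means of Ryr2-201 were 50% in D1 and 87.5% in D2. Wdr59 and Zfp277, which also have 2 listed isoforms, were at 100% for 1 isoform in at least 3 libraries of one kind and mixed in the other kind.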
